A study of Mus musculus with 4 samples.

Results

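The Wnt ligands, their Frizzled receptors and the proteins that pass the signal on were examined in laser-captured mouse hair follicles. Members were chosen by gene symbol alone: every numbered Wnt and Frizzled gene, together with Ctnnb1, Lrp5, Lrp6, Dvl1, Dvl2, Dvl3, Apc, Gsk3b, Porcn, Tcf7l2 and Tcf7. The arrays held 60 probe sets for 38 of these genes, among 12393 genes with a probe set of a single symbol, and no such probe set named Tcf7. The members were 19 ligands, 9 Frizzled receptors, the acyltransferase Porcn, 2 co-receptors, 6 cytoplasmic transducers and 1 nuclear factor.

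Follicles came from dorsal skin of untreated male littermates aged 14 days, late in the first growth phase of the coat. They were N1 offspring of a Hos:HR-1 male and a heterozygous F1 female from a cross of HR-1 and ICR. The homozygous samples (HrHos/HrHos, replicates 2 and 3) carry the recessive hairless mutation of Hr on both copies, and the heterozygous controls (+/HrHos, replicates 3 and 4) carry it on 1, so every animal holds the mutant allele. Each of the 4 samples pooled 50 to 70 follicles, and the labels do not tie a sample to an animal, so the replicates may be technical and the p-values cover no more than their spread. For homozygous replicate 3 the title names the homozygous line while the genotype written under strain is the heterozygous one, and its source name repeats the number of the other homozygous sample. The title decided its group, and values under the strain field are given for the members that moved most.

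Wnt proteins are secreted lipid-modified signals. In the canonical branch a Wnt brings a Frizzled receptor together with the co-receptor Lrp5 or Lrp6, Dishevelled is recruited, the complex that marks beta-catenin for destruction is held back, and beta-catenin enters the nucleus with a TCF/LEF factor. In the hair follicle this signal starts the placode and later drives shaft differentiation in the matrix, while other Wnts act through Frizzled receptors on planar cell polarity. Hr encodes a corepressor reported to hold down genes of secreted Wnt inhibitors, which is the reason to ask whether the pathway's own ligands and receptors differ between the genotypes.

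The captured tissue carried follicle markers. All 10 measured hair shaft and matrix markers and all 6 inner root sheath markers lay above the array median in all 4 samples, as did 5 of 6 outer root sheath and 3 of 8 dermal papilla markers. The papilla markers Sox2, Hhip and Fgf10 were not above it in any sample. Other cell types were also represented, with 7 of 8 dermal fibroblast, 5 of 6 adipocyte and 5 of 5 melanocyte markers above the median in all 4 samples, against 2 of 6 for skeletal muscle, 2 of 5 for endothelium and 1 of 5 for leukocytes. In such pooled tissue, fewer cells of a type and less RNA per cell cannot be told apart. Across the probe sets tested, log2 values correlated least between the heterozygous pair (r = 0.884) and at 0.906 to 0.931 in the other pairs.

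Members with signal above the middle of the array in every sample were about as many as those with none above it. The array median, the intensity that divides the non-control probe sets of an array into equal parts, was 47.2 in heterozygous replicate 3, 49 in heterozygous replicate 4, 43.5 in homozygous replicate 2 and 52.6 in homozygous replicate 3. With each gene represented by its probe set of highest mean, 16 of 38 members lay above the median in all 4 samples, 8 in some and 14 in none. Of all genes, 46.8% lay above it in all 4 samples and 28.2% in none. The number of members above the median was similar in the 4 samples, at 21 and 18 in the heterozygous and 22 and 21 in the homozygous ones. Intensities of different probe sets depend on the probes and give no order between genes.

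**Figure D1:**
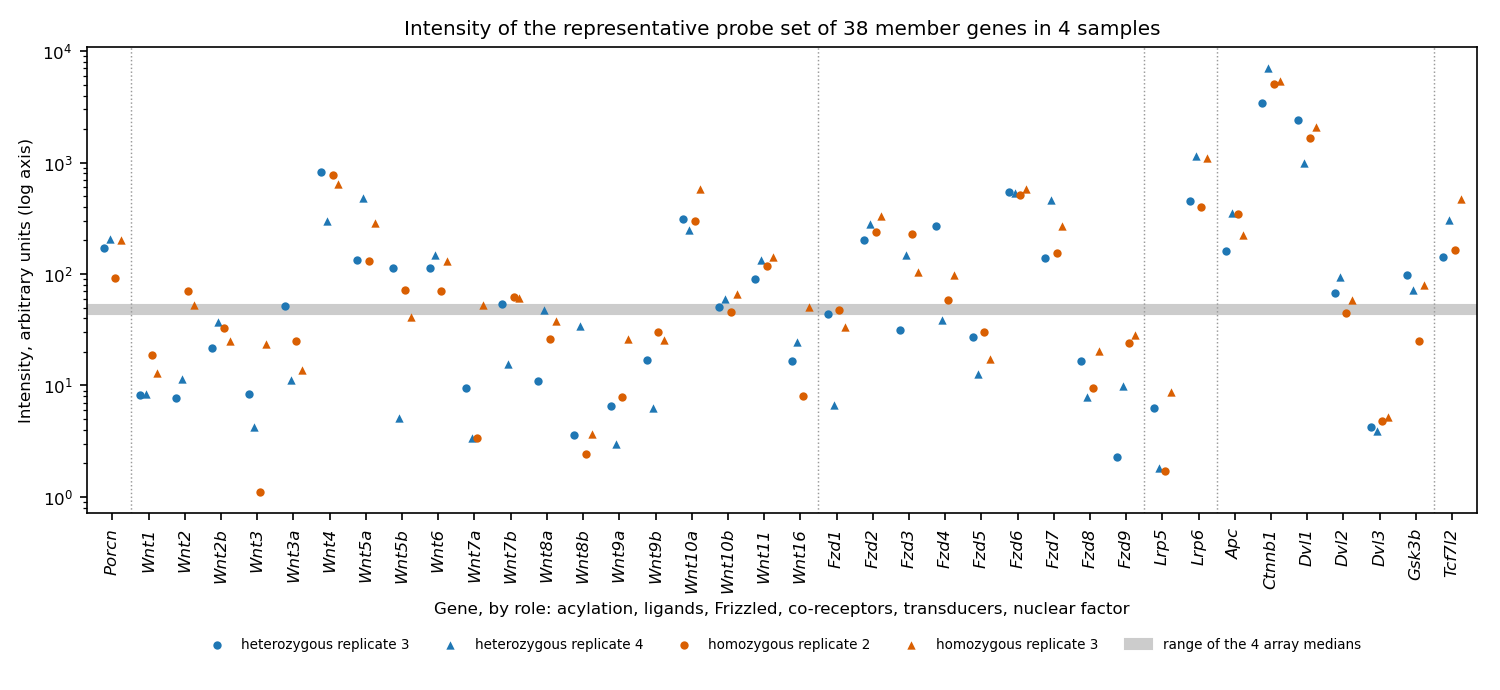
Intensity (arbitrary units, log axis) of the representative probe set of each of the 38 member genes, ordered by role; points are single samples, blue for heterozygous and orange for homozygous, and the grey band spans the 4 array medians from 43.5 to 52.6. Ctnnb1, Dvl1, Lrp6, Fzd6, Wnt4 and Wnt10a stand above the band in every sample, while Lrp5, Dvl3 and Wnt8b lie below it in every sample.

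Promoter sequence was at hand for 26 of the 38 members. The windows, from RefSeq on GRCm38.p6, hold 250 bases before and 50 after an annotated start. They were searched on both strands for the TCF/LEF core spelled CTTTGAT or CTTTGTT or CTTTGAA or CTTTGTA, which do not overlap one another. A match was found in 5 of the 26 genes (19.2%), namely Fzd7, Tcf7l2, Wnt3, Wnt5b and Wnt11, where 18.9% of all 27025 genes with a window have one. A match is a description of letters, not of a working site. The 250 bases before the start of Fzd7 (chr1:59481897-59482146, plus strand) and of Wnt11 (chr7:98834862-98835111, plus strand) are shown as examples from members that were above the median in all 4 samples. Tcf7l2 was so too, and its window is not shown. Capitals mark the match, which reads along the opposite strand and begins 130 bases before the start in Fzd7 and 51 bases before it in Wnt11.
Fzd7: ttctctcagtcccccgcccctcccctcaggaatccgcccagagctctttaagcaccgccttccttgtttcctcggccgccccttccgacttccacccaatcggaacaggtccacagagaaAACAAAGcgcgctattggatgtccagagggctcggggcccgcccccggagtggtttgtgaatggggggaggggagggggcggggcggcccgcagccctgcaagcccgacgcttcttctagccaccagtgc
Wnt11: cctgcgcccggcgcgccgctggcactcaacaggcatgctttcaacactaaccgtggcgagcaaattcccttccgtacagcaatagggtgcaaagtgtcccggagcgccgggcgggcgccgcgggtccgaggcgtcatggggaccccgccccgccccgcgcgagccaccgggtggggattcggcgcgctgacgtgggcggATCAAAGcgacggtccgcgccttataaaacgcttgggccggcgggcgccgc

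Among the ligands, 6 of 19 were above the median in all 4 samples: Wnt4, Wnt5a, Wnt6, Wnt10a, Wnt10b and Wnt11. Wnt4 read 821.6 in heterozygous replicate 3 but 301.6 in replicate 4, while homozygous replicates 2 and 3 gave 771.4 and 645.9, so that it was low in 1 sample alone. All pairs of values below follow this order of samples. Wnt10a, a ligand needed for normal hair and tooth formation, read 311.7 and 247.8 against 300.2 and 575.7, and only homozygous replicate 3 stood apart. Wnt10b, a canonical ligand of the follicle placode and matrix, was just above the median with 50.7 and 59.4 against 45.7 and 65.9.

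The other ligands above the median in every sample shared the order of replicates within each genotype, as did Wnt10b. Wnt5a, which signals mainly outside the beta-catenin branch and is made in the dermal papilla, read 134.1 and 479.4 in the heterozygous and 130.4 and 287.1 in the homozygous samples. Its other probe set had the same high and low replicates, with 99.9 and 155.9 against 86.1 and 153. Wnt6 read 114.3 and 148.3 against 69.8 and 131.8, and Wnt11, another ligand linked to polarity signalling, read 89.6 and 132.7 against 118 and 142.6. In all 3 genes heterozygous replicate 4 exceeded heterozygous replicate 3 and homozygous replicate 3 exceeded homozygous replicate 2, and the genotypes overlapped.

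Of the remaining 13 ligands, 4 passed the median in some samples and 9 in none. Wnt2 was above the median in both homozygous samples (69.8 and 53.2) and far below it in both heterozygous samples (7.7 and 11.3). Homozygous replicate 3 passed its median of 52.6 only narrowly. Wnt7b, a canonical ligand that takes part in the start of hair growth, read 54 and 15.7 against 61.9 and 61.1, with only heterozygous replicate 4 below the median. Wnt3a and Wnt5b were above it in 1 and 2 samples. Wnt5b, which was singled out after its values were seen, ranged from 5.1 in heterozygous replicate 4 to 114.2 in heterozygous replicate 3.

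The 9 ligands that never passed the median were Wnt1, Wnt2b, Wnt3, Wnt7a, Wnt8a, Wnt8b, Wnt9a, Wnt9b and Wnt16, with intensities from 1.1 to 52.5. Such values say only that these probe sets gave little signal. Wnt7a reached 52.5 in homozygous replicate 3 and stayed between 3.4 and 9.5 elsewhere, just short of that array's median. Wnt8b reached 34 in heterozygous replicate 4 and 2.4 to 3.7 elsewhere. Both thus owed their spread to 1 sample.

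Of the 9 Frizzled receptors, Fzd2, Fzd6 and Fzd7 were above the median in all 4 samples. Fzd6, the receptor that orients hairs across the skin, was the steadiest of the members above the median, at 547.3 and 532.2 in the heterozygous and 511.6 and 582.6 in the homozygous samples. Its largest deviation from its mean over the samples was 0.10 (log2). Fzd2 read 200 and 280.6 against 237.8 and 331.2. Fzd7 varied much more, with 140.1 and 458.8 against 153.9 and 271.8. Its high samples, heterozygous replicate 4 and homozygous replicate 3, were also those of Wnt5a.

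By their representative probe sets, Fzd1, Fzd3 and Fzd4 passed the median in some samples only. Fzd3, which works with Fzd6 in planar polarity, read 31.2 and 147.5 in the heterozygous and 226.7 and 104.9 in the homozygous samples, so that only heterozygous replicate 3 lay below the median. A second probe set of Fzd3 put the 4 samples in the same order, with 55.4 and 123.4 against 208.1 and 86.4. That probe set was above the median in all 4 samples. In both probe sets the homozygous values fell on either side of heterozygous replicate 4. Fzd4, a receptor known from blood vessel growth in the retina and singled out after its values were seen, read 270.5 in heterozygous replicate 3 and 38.3, 58.2 and 97.3 in the other samples. Fzd5, Fzd8 and Fzd9 stayed between 2.3 and 30.4, below the median throughout.

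The proteins on either side of the receptor were mostly above the median. Porcn, the enzyme that attaches the lipid without which a Wnt is not secreted, read 170.4 and 204.6 in the heterozygous and 92.7 and 203.6 in the homozygous samples, with homozygous replicate 2 alone low. The co-receptor Lrp6 read 451.5 and 1141.1 against 403.3 and 1108.7. Each genotype thus had 1 lower sample and 1 sample more than double its level. Its relative Lrp5 gave 1.7 to 8.7 in all samples.

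In the cytoplasm, 4 of 6 transducers were above the median in all 4 samples. Ctnnb1, which encodes beta-catenin, read 3453.5 and 7042.1 in the heterozygous and 5074.9 and 5355.9 in the homozygous samples, so both homozygous values lay between the heterozygous ones. Apc, the scaffold of the destruction complex, did the same, with 348.7 and 222.9 between 159.8 and 355.3. Dvl1, a Dishevelled scaffold, also did so, with 1654.1 and 2082.3 between 995.7 and 2399.9.

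Dvl2 was the transducer above the median whose genotypes did not overlap. It read 67 and 94.2 in the heterozygous and 44.6 and 58.6 in the homozygous samples, the first homozygous value being just above that array's median of 43.5. Gsk3b, the kinase that marks beta-catenin for destruction and a gene singled out after its values were seen, read 97 and 71.3 against 24.9 and 79.6. It missed the count through homozygous replicate 2. Dvl3 gave 3.9 to 5.2 in all samples. The nuclear factor Tcf7l2 (also called TCF4) read 141.2 and 304.2 against 165 and 472.3, again highest in heterozygous replicate 4 and homozygous replicate 3.

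No member differed between the genotypes past the threshold. Each probe set was tested with limma on log2(intensity + 32), homozygous minus heterozygous, among the 13576 probe sets of highest mean intensity, with Benjamini-Hochberg adjustment over all of them and a threshold of 0.05. Of the 28 member probe sets that passed this intensity filter, limma called 0, where 0% of all tested probe sets were called. At an unadjusted p under 0.05 the count was also 0 of 28, against 2.3% of all tested probe sets. The smallest unadjusted p among these 28 was 0.147 in limma (adjusted p = 1). With 2 samples against 2, an exact permutation test of 1 gene cannot give a two-sided p below 0.333.

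The width of the intervals shows what these arrays could resolve. For the 22 member genes whose representative probe set passed the filter, the 95% interval of the log2 difference reached 0.80 to 1.34 to either side, with a median of 1.02 (2.03-fold). A difference smaller than the reach of its interval could not be called. These intervals hold for 1 gene without adjustment, so a larger difference could also miss the adjusted threshold. For Ctnnb1 the difference was 0.08 ± 0.39 (log2, SE, n = 2 per group) with an interval from -0.79 to 0.94. For Fzd6 it was 0.02 ± 0.45, with an interval from -0.98 to 1.01.

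Over all 38 members, 27 differences lay above 0 and 11 below, with a median of 0.13. Of all genes 51.1% lay above 0, with a median of 0.01. The median of the members turned to -0.10 when homozygous replicate 3 was grouped by its strain field, and was 0.00 without that sample. The ligands had a median of 0.19 (14 of 19 above 0), the Frizzled receptors 0.11 (7 of 9) and the transducers 0.06 (4 of 6). Only 22 of the 38 members, and 8 of the 19 ligands, passed the intensity filter, so these counts include many dim probe sets. Differences ran from -0.53 for Gsk3b to 1.17 for Wnt2.

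**Figure D2:**
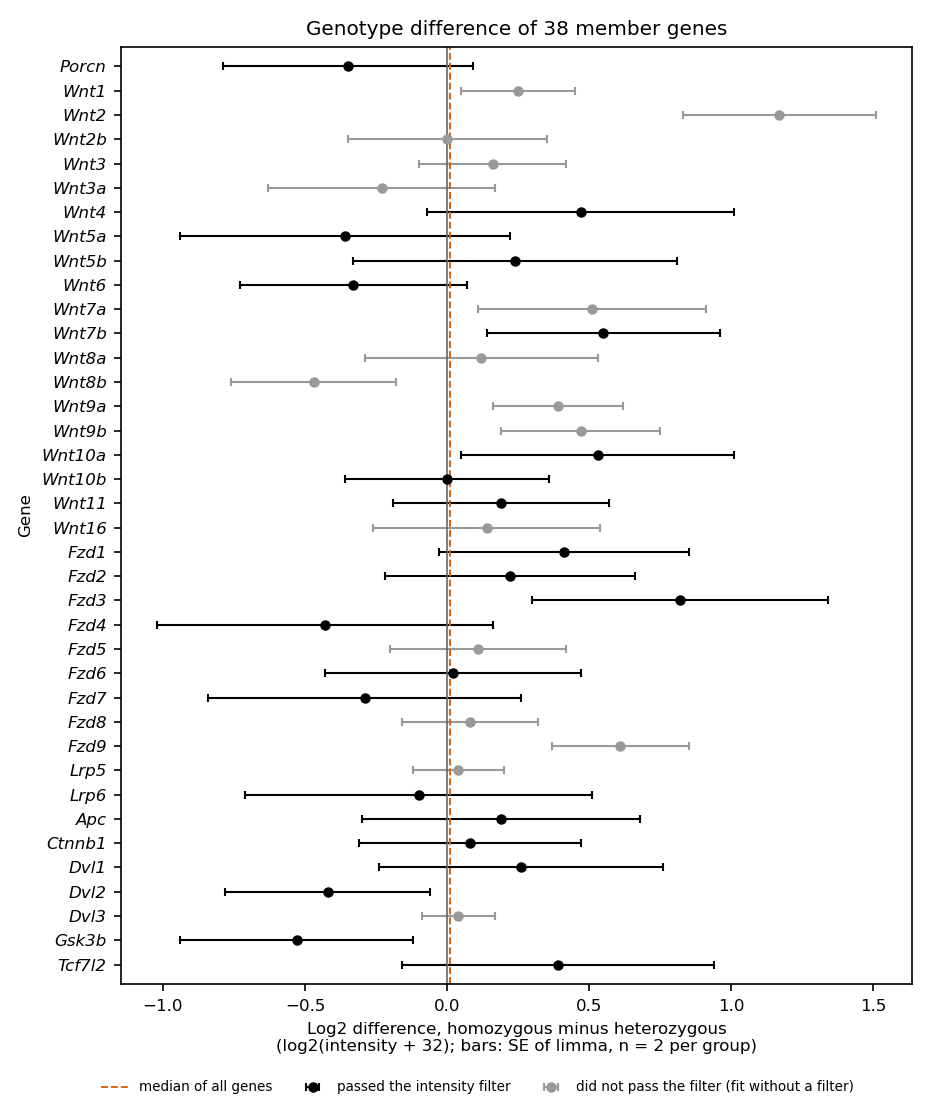
Log2 difference in intensity (homozygous minus heterozygous, on log2(intensity + 32)) of the 38 member genes, with the SE from limma as bars (n = 2 per group); black genes passed the intensity filter and grey ones did not and come from the fit without a filter. The dashed line is the median of all genes, 0.01. Most bars among the black genes reach across 0, and Wnt2 at 1.17 lies farthest from it.

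Among the ligands above the median in every sample, Wnt10a differed by 0.53 ± 0.48 (log2, SE, n = 2 per group), Wnt4 by 0.47 ± 0.54, Wnt11 by 0.19 ± 0.38 and Wnt10b by 0.00 ± 0.36. Wnt6 differed by -0.33 ± 0.40 and Wnt5a by -0.36 ± 0.58. Each was about as large as its standard error or smaller. The Wnt10a difference ran from 0.10 to 0.97 as single samples were left out and was -0.22 by the strain field. The Wnt4 difference turned to -0.21 without heterozygous replicate 4, and that of Wnt5a to 0.45. Porcn differed by -0.35 ± 0.44 and by 0.11 without homozygous replicate 2. By the strain field the differences were -0.85 for Porcn, -0.89 for Wnt5a and -0.68 for Wnt6.

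Among receptors and transducers, Fzd3 had the largest difference of a member that passed the filter, 0.82 ± 0.52 (log2, SE, n = 2 per group). It was 0.07 without heterozygous replicate 3 and 1.57 without heterozygous replicate 4. Fzd2 differed by 0.22 ± 0.44, Fzd7 by -0.29 ± 0.55 and Lrp6 by -0.10 ± 0.61. Dvl1 differed by 0.26 ± 0.50, Apc by 0.19 ± 0.49, Tcf7l2 by 0.39 ± 0.55 and Dvl2 by -0.42 ± 0.36. By the strain field the differences were -0.65 for Tcf7l2, -0.99 for Lrp6, -0.67 for Fzd7 and 1.16 for Fzd3. Gsk3b differed by -0.53 ± 0.41, by -1.0 under that grouping and by -1.02 to -0.05 as single samples were left out.

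Samples of the genotypes did not overlap for few of the members that passed the filter. In 3 of the 28 probe sets the lower homozygous value exceeded the higher heterozygous value, where 13.6% of all tested probe sets did so, and in 1 of 28 the genotypes were parted the other way, where 13.3% were. The 3 with higher homozygous values were Wnt7b (0.55 ± 0.41, log2, SE, n = 2 per group), the second probe set of Dvl1 (156.1 and 87.5 against 168 and 175.6) and the dimmest probe set of Fzd2 (42.9 and 37 against 51.6 and 59.9). The remaining one was Dvl2. With so few probe sets nothing is read from these counts. Without a filter the genotypes were parted in 15 of the 60 member probe sets (29% of all probe sets), and by the strain field, with 1 sample against 3, in 14 of 28 (43.3%). The difference of Wnt7b was 0.12 without heterozygous replicate 4 and 0.04 over the mean of its probe sets.

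The members with the smallest p without an intensity filter were dim ligands and receptors. Wnt2 had a difference of 1.17 ± 0.34 (log2, SE, n = 2 per group), with an unadjusted p of 0.0108 in limma and an adjusted p = 1. Its heterozygous mean of 9.5 lies under the offset of 32, and with an offset of 1 the difference was 2.58. Leaving out any one sample gave 1.04 to 1.30, and the strain field gave 0.95 (limma unadjusted p = 0.123). Fzd9 read 2.3 and 9.9 in the heterozygous and 23.8 and 28.3 in the homozygous samples, a difference of 0.61 ± 0.24 (limma unadjusted p = 0.036, adjusted p = 1), with all 4 values below the array median. With an offset of 1 it was 2.17, and by the strain field 0.33 (limma unadjusted p = 0.389).

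Other dim ligands were closer to the spread of their samples. Wnt9b read 16.8 and 6.3 against 30.2 and 25.5 (0.47 ± 0.28, log2, SE, n = 2 per group), Wnt9a 6.6 and 3 against 7.9 and 26 (0.39 ± 0.23), and Wnt1 8.2 and 8.3 against 18.6 and 13 (0.25 ± 0.20). In these 3 genes both homozygous samples were higher. Wnt7a (9.5 and 3.4 against 3.4 and 52.5) differed by 0.51 ± 0.40 and Wnt8b (3.6 and 34 against 2.4 and 3.7) by -0.47 ± 0.29, each through its 1 higher sample. Without a filter 2 of the 38 members, Wnt2 and Fzd9, had an unadjusted p under 0.05.

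For the members above the median, gaps between samples of a genotype were set beside the difference between genotype means. A gap between single samples is expected to be larger than a difference of means even where genotypes do not differ. The order of these sizes therefore says nothing about genotype. For these 16 genes the median gap between the heterozygous samples was 0.70 (log2) and that between the homozygous samples 0.50, against a median genotype difference of 0.27 in size. The same medians over the 5804 genes above the median in all 4 samples were 0.45, 0.35 and 0.24. Both gaps exceeded the genotype difference in 10 of the 16 members, and in 48.7% of those genes.

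The within-genotype gaps of the members ran mostly one way. Homozygous replicate 3 exceeded homozygous replicate 2 in 14 of the 16 members, where 51.3% of all genes above the median did so, and heterozygous replicate 4 exceeded heterozygous replicate 3 in 12 of 16, against 51.7%. Both held in 11 of 16: Ctnnb1, Dvl2, Fzd2, Fzd7, Lrp6, Porcn, Tcf7l2, Wnt5a, Wnt6, Wnt10b and Wnt11. Lrp6 deviated from its mean by -0.59 and 0.69 in heterozygous replicates 3 and 4 and by -0.74 and 0.65 in homozygous replicates 2 and 3. Wnt4, Dvl1, Wnt10a and, only slightly, Fzd6 went the other way in the heterozygous pair. Apc and Wnt4 did so in the homozygous pair. This pattern was noticed in the data and carries no test.

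**Figure D3:**
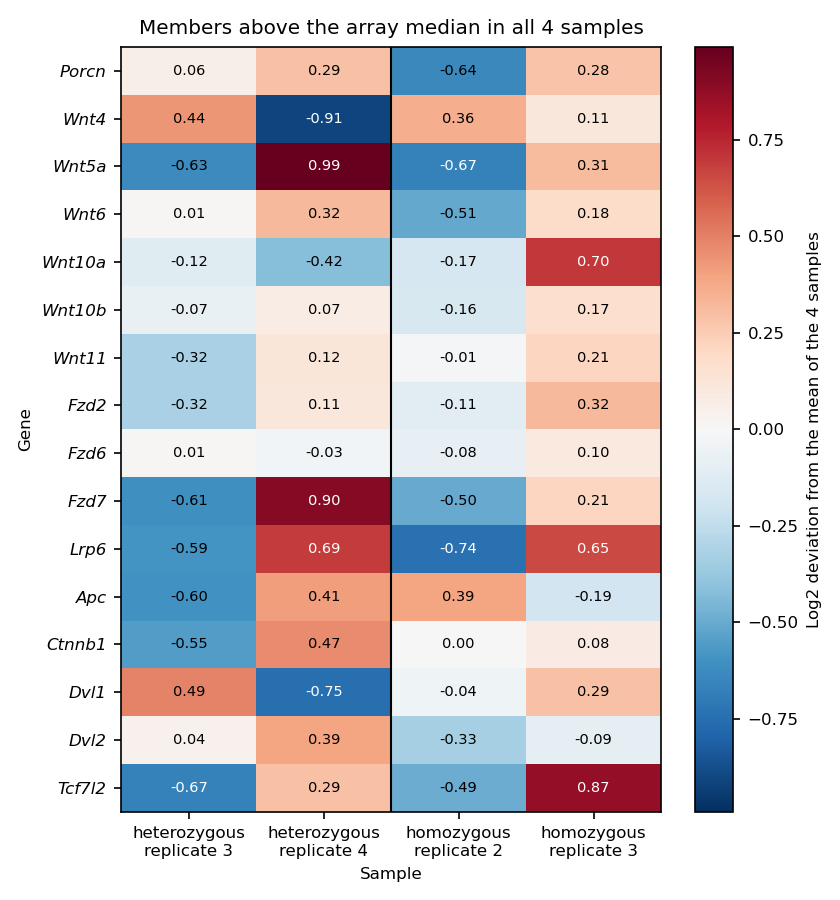
Deviation of each sample from the gene's mean over the 4 samples (log2(intensity + 32)) for the 16 members above the array median in every sample; red is above and blue below the mean, and the black line parts the genotypes. Wnt5a, Fzd7, Lrp6 and Tcf7l2 are blue in the first sample of each genotype and red in the second, while Fzd6 stays within 0.10 of its mean.

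Some library measures went with this order of samples. The summed melanocyte markers were 1594 and 3963 in the heterozygous samples, against 3542 and 6763 in the homozygous ones. The sums for skeletal muscle were 348 and 575 against 177 and 390, and for endothelium 216 and 261 against 199 and 312, with Pecam1 and Emcn above the median in no sample. Hair shaft and matrix sums also followed this order and are given below. Single markers of these lists did not all do so. In the heterozygous pair Krt33b, Krt34, Krt35, Krt86 and Msx2 were lower in replicate 4, as were Pmel, Myh4, Tnni2, Cdh5 and Emcn. In the homozygous pair Krt33b, Krt83 and Emcn were lower in replicate 3. Signal at the 3' end of Actb over that at its middle, a measure of RNA integrity and amplification, was 42.1 and 11.3 against 45.9 and 33.7, lower in the samples where the members were high. For Gapdh the ratio was 17.2 and 30.1 against 15.4 and 14.8, which does not follow that order in the heterozygous pair. The dermal papilla sums did not follow it, at 639 and 1000 against 926 and 740. The part of these measures in the members' values was not tested. Both ratios were at least 11.3 in all 4 samples, so the 3' end gave far more signal than the middle. Where the members' probe sets lie along their transcripts, and the part of this in low readings, was not examined.

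Some markers moved with the genotypes. Summed dermal fibroblast markers were 12100 and 9616 in the heterozygous and 5723 and 6056 in the homozygous samples. The homozygous mean was lower for 7 of 8 genes, without overlap for 5. Summed hair shaft and matrix markers were 10453 and 11368 against 15667 and 18978. The homozygous mean was higher for 9 of 10 genes, without overlap for 6. Adipocyte sums were 13311 and 12059 against 10114 and 5612, without overlap for 3 of 6 genes, and inner root sheath sums were 30643 and 27216 against 22453 and 23624, with 2 of 6 genes lower and 2 higher without overlap. Of all tested genes, 13.8% had both homozygous values above both heterozygous ones, and 13.4% had both below. The part of these markers in the genotype differences of the members was not tested.

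Probe sets of the same gene often differed. Of the 38 members, 15 had more than 1 probe set, and of their 22 other probe sets 16 were above the median in no sample. Ctnnb1, at 3453.5 to 7042.1 by its representative, read 2.2 to 47.5 and 1.6 to 4.4 by the others, and Apc read 3.6 to 20 and 3.2 to 5.2 by its others. A gene below the median throughout by a single probe set, such as Lrp5 or Dvl3, has no such second reading.

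Differences had the opposite sign to that of the representative in 10 of the 22 other probe sets, of which 2 had passed the filter. Those 2 were Fzd2 (-0.28 ± 0.42, log2, SE, n = 2 per group) and Tcf7l2 (-0.21 ± 0.58). Among the dim ones, another Tcf7l2 probe set gave -0.38, and those of Wnt7b, Fzd6, Wnt5b and Ctnnb1 gave -0.46, -0.18, -0.07 and -0.03. The dim ones of Lrp6, Fzd7 and Wnt8b gave 0.27, 0.11 and 0.01.

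**Figure D4:**
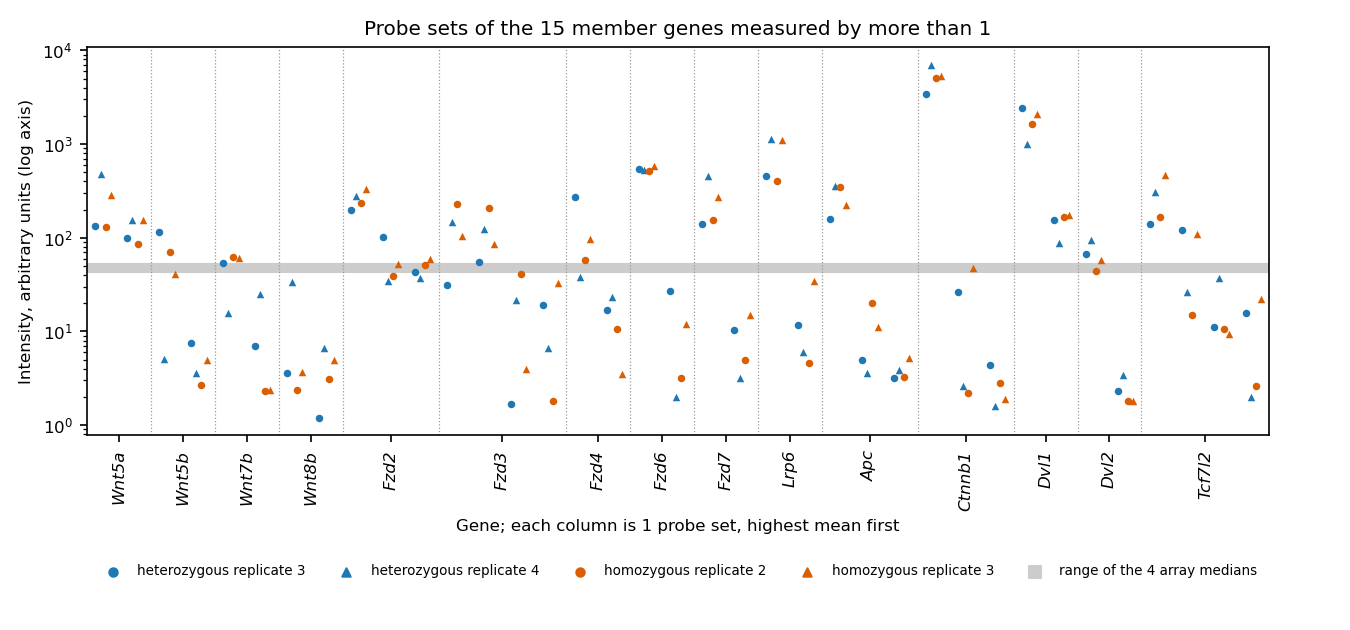
Intensity (arbitrary units, log axis) of every probe set of the 15 member genes with more than 1, each column being 1 probe set in order of its mean; points are single samples, blue for heterozygous and orange for homozygous, and the grey band spans the array medians. Ctnnb1, Apc, Lrp6, Fzd6 and Fzd7 each have 1 probe set above the band and their others mostly under it.

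The wider pathway showed no called gene either. Of 71 other genes in 7 lists, 62 were measured, 37 of them above the median in all 4 samples, and 47 passed the filter. Limma called 0 of these 47. The differences lay above 0 in 36 of the 62 and below in 26, where 51.1% of all genes lay above. Both homozygous values were higher than the heterozygous ones in 10 of the 47, where 13.8% of all tested genes were, and lower in 4, where 13.4% were. From each list the pair of genes with the smallest unadjusted p without an intensity filter follows, with Wif1 and Bcl9 besides.

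Among 8 measured genes of ligand release and other Wnt receptors (median 0.06), the kinase-like receptor Ryk read 99.1 and 231.4 in the heterozygous and 268.4 and 283.5 in the homozygous samples (0.73 ± 0.46, log2, SE, n = 2 per group). Notum, which strips the lipid from Wnts, read 66.5 and 70.5 against 82.8 and 146.5 (0.51 ± 0.38). Of the 5 measured R-spondins and receptors (median 0.06), Rspo1 read 25.6 and 48.5 against 45.9 and 77.8 (0.44 ± 0.39), and Rnf43, a ligase that removes Frizzled from the membrane, 49.5 and 17.8 against 88.5 and 32.4 (0.47 ± 0.44). In Ryk and Notum the genotypes did not overlap, and in Rspo1 and Rnf43 they did.

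The 13 measured secreted antagonists had a median of 0.05, with Sfrp2, a Frizzled-like decoy, at 101.6 and 83.9 against 43.9 and 55.9 (-0.61 ± 0.36, log2, SE, n = 2 per group) and the co-receptor blocker Dkk4, dim in all samples, at 21.9 and 4.9 against 4.5 and 2.4. Wif1, which binds Wnts outside the cell, read 57.2 and 54.7 against 57.5 and 196 (0.70 ± 0.46) and stood apart through homozygous replicate 3. Summed fibroblast markers, given above, were lower in the same samples as Sfrp2, and a link between them was not tested. The 13 genes of the destruction complex and feedback had a median of -0.12. Axin1, its scaffold, read 171.8 and 127.3 against 213.5 and 238.5 (0.52 ± 0.40), and the feedback inhibitor Nkd1 read 37.4 and 33.4 against 11.1 and 19.5 (-0.52 ± 0.31, below the filter). Axin2, the common reporter of beta-catenin signalling and singled out here for that role, read 170.2 and 158.5 against 156.7 and 146.3 (-0.10 ± 0.38). Its homozygous values were slightly lower, by far less than its SE.

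The 9 nuclear partners had a median of 0.17, with the beta-catenin cofactor gene Pygo2 at 205.3 and 117.1 against 250.2 and 240.7 (0.56 ± 0.43, log2, SE, n = 2 per group) and the corepressor gene Tle2 at 30.5 and 22.7 against 53.8 and 40.4 (0.43 ± 0.38). Bcl9, another beta-catenin cofactor gene, read 71.2 and 84.6 against 37.2 and 57.6 (-0.48 ± 0.36). Lef1, the TCF/LEF factor known from the hair matrix and singled out after its values were seen, gave 41.9 and 2.7 against 3.8 and 29.7 and was above the median in no sample. The 6 planar polarity genes had a median of -0.01, with the membrane protein gene Vangl1 at 139.8 and 136.3 against 82 and 106.8 (-0.43 ± 0.37) and Vangl2 at 42.5 and 122.9 against 107.9 and 95.1. The 8 genes regarded as Wnt targets had a median of 0.11. Of these Id2 read 385.9 and 365.3 against 640.5 and 570.6 (0.64 ± 0.45), and the hedgehog ligand gene Shh, dim on these arrays, 16.3 and 38.4 against 14 and 5.5.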

How the data were processed

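The values are linear probe set intensities deposited by the authors for 4 Affymetrix 1-colour arrays, made, per the labels' protocols, from amplified RNA of laser-captured follicles in sections of 8 micrometres. The arrays had been scaled by the authors, judging from a trimmed mean (2% of probe sets dropped at either end) of 165 on every array. For software and background correction, the sources used here give nothing. Arrays have no read depth, and their number limits the precision.

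Of 22690 probe sets, 64 controls were left out, and genes were named from the supplied platform annotation, which gives 20380 probe sets a single symbol. The deposited intensities were transformed to log2(intensity + 32), which understates differences of dim genes. The brightest 60% (13576 probe sets) entered a two-sided test in limma 3.58.1 (R 4.3.3), lmFit followed by eBayes with an intensity trend (2 residual and 8.64 prior degrees of freedom). P-values were adjusted by Benjamini-Hochberg across the 13576. Values of members below the filter come from the same fit without it. The fit was tested on simulated data.

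Values in every sample are given for Ctnnb1, members above the array median in all 4 samples, the 10 members with the smallest unadjusted p without a filter, and up to 4 genes (2 are printed, or 3 where Wif1 or Bcl9 is added) from each other pathway list. Exceptions are marked in the text. A gene is represented by its probe set of highest mean. Members, lists and tests were chosen with earlier results of these data known. Alternatives covered the offset, filter, normalization, grouping, variance moderation, probe set averaging and each sample left out.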

Additional observations from a re-analysis of the deposited data

How the results depend on the processing

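Limma called 0 member probe sets under the main setting and under each of the 11 alternatives; over all probe sets it called 0, apart from 17 without heterozygous replicate 3 (range 0 to 17 over the samples left out), none of them a member. Between 19 and 21 member probe sets lay above the array median in every remaining sample when 1 sample was left out. With all samples 19 did, and 16 were above the 60th percentile. Counted by gene, 13 of 38 lay above the median by the mean of their probe sets, against 16 of 38 by the representative. The median member difference was 0.13, and 0.25 with an offset of 1, -0.10 when the strain field decided the group of homozygous replicate 3, and 0.00 to 0.22 with 1 sample left out. Member probe sets without overlap between genotypes numbered 4 of 28 (26.9% of all tested probe sets), 15 of 60 with no filter (29% of all) and 14 of 28 by the strain field, where 1 sample stands against 3 (43.3% of all). Of 27 member genes compared across settings, 9 had 1 direction under all 11 alternatives, 17 turned under at least 1, and Wnt10b, at 0.00, had values of both signs (-0.22 to 0.17). By the strain field the difference turned to -0.05 for Dvl1, -0.14 for Fzd2, -0.11 for Fzd6, -0.65 for Tcf7l2, -0.22 for Wnt10a, -0.02 for Wnt11, -0.49 for Wnt7a and -0.10 for Wnt9a. By the mean of all probe sets of a gene it turned to -0.08 for Fzd6, 0.09 for Lrp6 and -0.02 for Tcf7l2. With 1 sample left out, differences ran from -0.31 to 0.70 for Apc, -0.43 to 0.59 for Ctnnb1, -0.37 to 0.88 for Dvl1, -0.07 to 0.10 for Fzd6, -1.49 to 0.62 for Fzd4, -1.05 to 0.47 for Fzd7, -0.79 to 0.60 for Lrp6, -0.81 to 0.11 for Porcn, -0.29 to 1.06 for Tcf7l2, -0.03 to 0.41 for Wnt11, -0.21 to 1.15 for Wnt4, -1.17 to 0.45 for Wnt5a, -0.67 to 0.01 for Wnt6 and -0.11 to 1.14 for Wnt7a. The cause of these turns was not tested. A fit with 1 sample in a genotype assumes that it varies like the others. No paired analysis was possible because the genotypes share a single replicate number.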
